A study of Mus musculus with 4 samples.

Results

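Kruppel-like factor genes encode transcription factors that bind GC-rich and CACCC-type DNA through zinc fingers at the end of the protein. The 10 described here, Klf2, Klf3, Klf4, Klf5, Klf6, Klf7, Klf9, Klf10, Klf13 and Klf15, were taken by name from a deposited RNA-seq table of whole mouse kidney that holds 32151 usable genes. All 10 were listed, and all 10 passed the filter on low values, a mean of at least 0.5 FPKM (reads scaled by exon length and by the reads assigned in the library) over the 4 libraries. The lowest value of a member in a WT library was 0.705 FPKM, so none passed through the ADPKD libraries alone. The study set 2 libraries of a mouse model of autosomal dominant polycystic kidney disease (ADPKD), a disorder of cysts that grow from tubules, against 2 of WT mice. The ADPKD mice had the genotype Pkd1fl/fl; Cre/Esr1+, a floxed Pkd1 gene (polycystin-1) with a tamoxifen-inducible Cre recombinase, and the WT mice are labelled wildtype. Tamoxifen, 10 mg/kg on postnatal day 10, is listed for all 4 samples, WT included. They give no promoter for the Cre, no age at collection and no animal behind each library. The p-values therefore rest on the spread among these samples, which for the WT pair may be technical.

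Members of the family divide by the partners that their front ends recruit. Klf2, Klf4, Klf5, Klf6 and Klf7 mostly act as activators, Klf3 recruits the corepressor CtBP, and Klf9, Klf10 and Klf13 recruit the corepressor Sin3a. Klf15 stands apart and is known for the control of glucose and amino acid metabolism and for its role in podocytes, the filter cells of the glomerulus. In kidney, Klf2 is best known from endothelium, Klf5 from the collecting duct, and Klf4 and Klf6 from injured tubules and podocytes.

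Assigned reads numbered between 18001308 and 19955120 per library, and a member was covered by 66 to 7766 reads. Replicates were separate libraries: their reads gave a chi-square of 52.8 per gene between the WT pair and 59.7 between the ADPKD pair. ADPKD replicate 2 had Xist, the RNA of the inactive X chromosome, at 29.6 FPKM, against at most 0.0217 FPKM in the other 3 libraries, and the Y-linked Ddx3y at 0.0482 FPKM, against 8.46 FPKM or more. The ADPKD libraries therefore did not come from 1 animal. By Xist and Ddx3y, ADPKD replicate 2 was female in type and the other 3 libraries male. Sex was thus not balanced between the groups, and its part in the differences was not tested. Macrophage markers summed to 1273 FPKM in ADPKD replicate 2, 539 FPKM in ADPKD replicate 1 and 54.7 and 95.4 FPKM in WT. Kidney identity was seen in every library: the proximal tubule gene Slc34a1 stood at 131 FPKM or more, the thick limb gene Umod at 269 FPKM or more and the collecting duct gene Aqp2 at 309 FPKM or more. Pkd1 stood at 1.97 and 2.12 FPKM in WT and 2.48 and 2.08 FPKM in ADPKD, a value over all exons, which checks no deletion of floxed exons.

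Which Kruppel-like factor genes differ in ADPKD kidney was asked first. Klf6, Klf5, Klf4, Klf10, Klf3 and Klf7 rose, by 1.14 to 2.87 on the log2 scale, and 0 of the 10 fell. Klf13 was higher in value and Klf15, Klf2 and Klf9 lower, without passing the test. The test was limma on log2(FPKM + 1) across all 17001 genes that passed the filter, with Benjamini-Hochberg adjustment and a call at an adjusted p below 0.05. Of all genes tested 9.43% were called higher and 4.78% lower, against 6 and 0 of the 10 members. At an unadjusted p under 0.05 the members counted 7 higher and 1, Klf15, lower, where all genes gave 23.5% and 11.1%. Limma's voom on reads recovered from the FPKM called 7 members higher and 0 lower, with 12.3% of all genes higher. The median log2 fold change was 1.18 over the members and 0.18 over all genes tested.

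The call rests on 4 libraries, and fewer members passed when 1 of them was left out. Without ADPKD replicate 1 the call held for Klf6 alone, where 2.60% of all genes were called higher. Without WT replicate 1 or WT replicate 2 it held for Klf4 and Klf6, where 1.90% and 1.07% of all genes were, and without ADPKD replicate 2 for 0 members. Without ADPKD replicate 2 no gene tested passed the adjusted threshold, so that fit does not set members apart from other genes. Under quantile normalization or median-of-ratios scaling, which moved the median of all genes from 0.18 to -0.01 and -0.00013, Klf3, Klf4, Klf6 and Klf7 were called, against 5.88% and 4.81% of all genes. With a minimum mean of 5 FPKM, which Klf5 and Klf7 did not reach, Klf3, Klf4, Klf6, Klf10 and Klf13 were called, against 15.1% of all genes. Klf3 and Klf10, with WT means of 3.64 and 4.12 FPKM, passed that filter only through the ADPKD libraries. The replicate block called 6 members and 7.18% of all genes, and no filter on low values 0 members and 0.00311%.

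**Figure D1:**
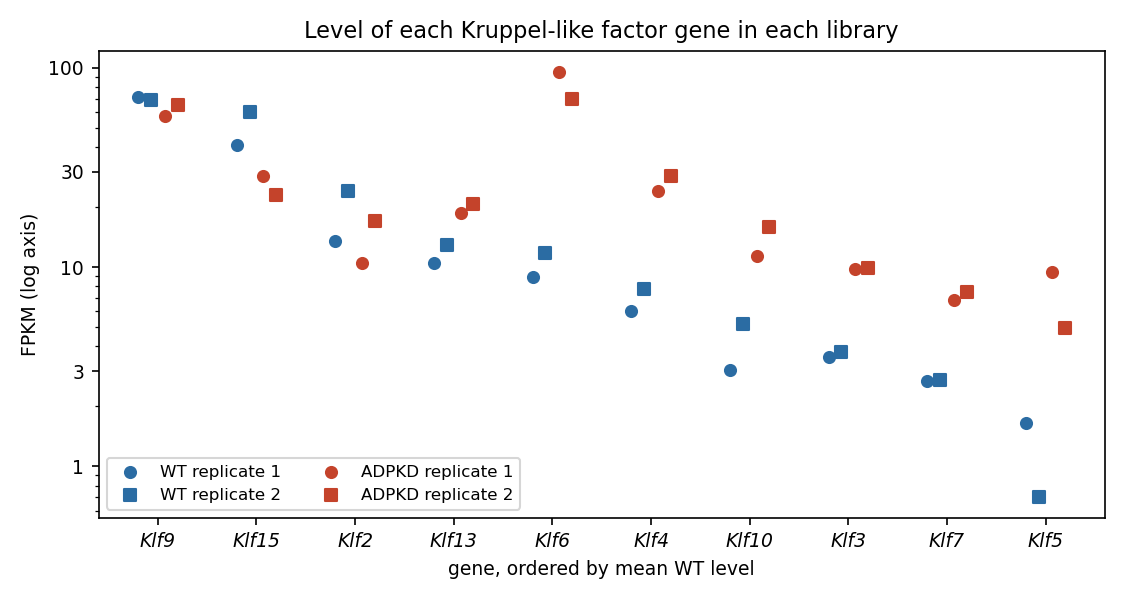
FPKM of each of the 10 genes in each library, on a log axis, with genes ordered by their mean in WT; blue points are WT, red points ADPKD, circles replicate 1 and squares replicate 2. Both ADPKD points lie above both WT points for 7 genes, below them for Klf9 and Klf15, and among them for Klf2.

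In WT kidney the family spanned a wide range of levels, and Klf9 and Klf15 were by far the most abundant per length. Klf9 averaged 70.3 ± 1.61 FPKM (SD, n = 2) and Klf15 50.6 ± 13.3 FPKM. They were followed by Klf2 at 18.8 ± 7.46 FPKM, Klf13 at 11.7 ± 1.75 FPKM and Klf6 at 10.4 ± 2.02 FPKM. Klf4 stood at 6.90 ± 1.20 FPKM, Klf10 at 4.12 ± 1.53 FPKM, Klf3 at 3.64 ± 0.165 FPKM, Klf7 at 2.70 ± 0.0164 FPKM and Klf5 at 1.18 ± 0.67 FPKM. Among neighbours in this order the ranges of the WT libraries overlapped for Klf13 and Klf6, and for Klf10 and Klf3.

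The order differed in ADPKD kidney, where Klf6 was the highest at 82.6 ± 17.9 FPKM and Klf9 next at 61.1 ± 5.77 FPKM. Klf4 (26.3 ± 3.14 FPKM) and Klf15 (25.8 ± 3.90 FPKM) overlapped between libraries, as did Klf2 (13.8 ± 4.58 FPKM) with Klf10 (13.7 ± 3.23 FPKM) and Klf5 (7.21 ± 3.18 FPKM) with Klf7 (7.18 ± 0.432 FPKM). Klf13 lay between the first and second of these pairs at 19.6 ± 1.41 FPKM, and Klf3 between the second and the last at 9.86 ± 0.0901 FPKM. The summed level of the 10 genes was 163 and 198 FPKM in WT replicates 1 and 2 and 272 and 263 FPKM in ADPKD replicates 1 and 2. Klf6 made up 5.51% and 5.96% of that sum in WT and 35.1% and 26.6% in ADPKD. Klf9 made up 43.95% and 34.9% in WT and 20.995% and 24.8% in ADPKD, and Klf15 25.3% and 30.3% in WT and 10.5% and 8.77% in ADPKD.

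**Figure D2:**
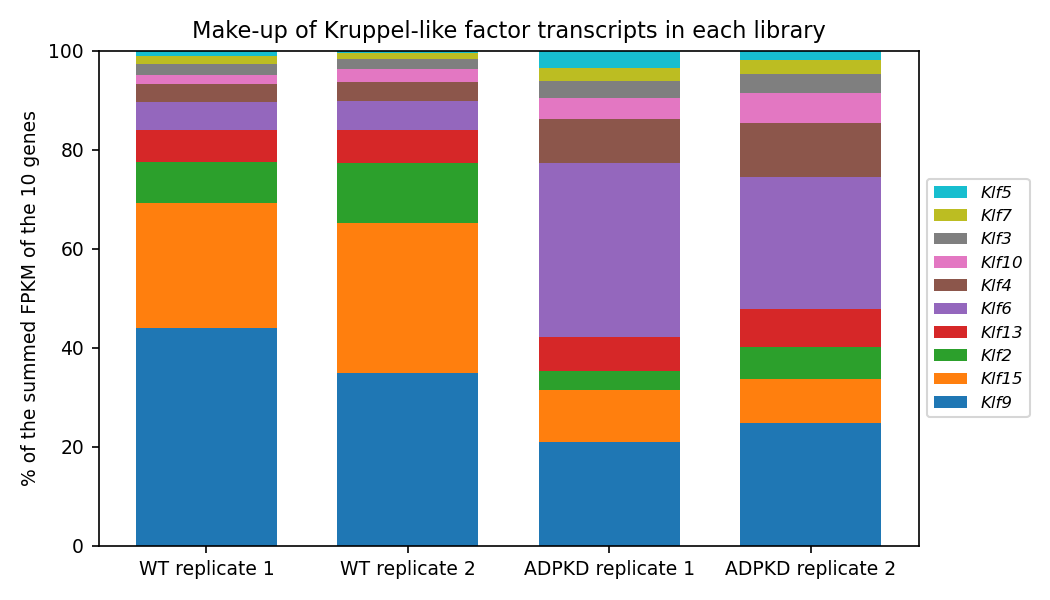
Share of the summed FPKM of the 10 genes that each gene takes, in percent, in each of the 4 libraries. The Klf6 block widens from 5.51% and 5.96% in WT to 35.1% and 26.6% in ADPKD, while the Klf15 block narrows from 25.3% and 30.3% to 10.5% and 8.77%.

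Among the activators, Klf6 had the widest difference. Klf6 is a gene that tissue injury and TGF-beta induce, and its product was reported in mice to lower the genes of branched-chain amino acid breakdown in injured proximal tubule. It lies on chromosome 13, 5861482 to 5870394 (GRCm38). The level of Klf6 was 8.96 FPKM in WT replicate 1 and 11.8 FPKM in WT replicate 2, from 723 and 934 reads. In ADPKD it was 95.3 FPKM in replicate 1 and 69.9 FPKM in replicate 2, from 7766 and 6128 reads. The lower ADPKD library was 5.92 times the higher WT library. Klf6 rose by 2.87 on the log2 scale (SE 0.23, limma adjusted p = 0.0165), and 0.812% of the genes tested had a larger rise. With the replicates left out in turn it ranged from 2.65 to 3.09, and the call was lost without ADPKD replicate 2 (limma adjusted p = 0.0662).

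Klf4, a regulator of epithelial differentiation that is also known as a reprogramming factor, lies on chromosome 4, 55527143 to 55532466. In WT it measured 6.05 and 7.74 FPKM, and in ADPKD replicates 1 and 2 24.0 and 28.5 FPKM. Both ADPKD values lay at least 3.11 times above the higher WT value. Klf4 rose by 1.79 (SE 0.19, limma adjusted p = 0.0202), and the call was lost without ADPKD replicate 1 (0.0561) and without ADPKD replicate 2 (0.0827).

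Klf2, which keeps endothelium quiescent and responds to blood flow, is the close relative of Klf4 (chromosome 8, 72319033 to 72321656). It measured 13.5 and 24.1 FPKM in WT and 10.5 and 17.0 FPKM in ADPKD. The groups overlapped, since ADPKD replicate 2 exceeded WT replicate 1. Its log2 fold change was -0.41 (95% interval -1.37 to 0.56, limma adjusted p = 0.477), with -0.0135 without WT replicate 2 and -0.80 without WT replicate 1. Within each library, which removes any scaling between libraries, the ratio of Klf4 to Klf2 was 0.446 and 0.321 in WT and 2.28 and 1.67 in ADPKD. Klf2 was thus the higher of the pair in both WT libraries and Klf4 in both ADPKD libraries.

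Klf5, known from the collecting duct and from proliferating epithelium, had the lowest level in WT (chromosome 14, 99298691 to 99315036). WT replicates 1 and 2 had 1.65 and 0.705 FPKM of it, from 158 and 66 reads, and ADPKD replicates 1 and 2 had 9.46 and 4.96 FPKM, from 913 and 515 reads. The ADPKD libraries differed 1.91-fold from each other and the WT libraries 2.34-fold, and the groups did not overlap. Klf5 rose by 1.89 (SE 0.38, limma adjusted p = 0.0433). This call was lost with quantile normalization (0.0585), with median-of-ratios scaling (0.0535) and when any of the 4 libraries was left out (0.0699 to 0.138).

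Klf7, known from neuron development and fat tissue, lies on chromosome 1, 64029447 to 64122282. Its level was 2.69 and 2.71 FPKM in WT, and 6.87 and 7.48 FPKM in ADPKD. Its WT libraries were within 1.01-fold of each other, the closest pair of any member in WT. Klf7 rose by 1.14 (SE 0.15, limma adjusted p = 0.0254), with a call lost when any of the 4 libraries was left out (0.0642 to 0.118).

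The DNA just before the starts of these genes is shown because activator genes that rose and members that did not pass the test can be set side by side. RefSeq windows (GRCm38.p6) of 250 bases before to 50 after the start were matched for 8 of the 10 members; Klf5 and Klf10 had no entry. The windows printed are those of Klf6 (chr13:5861239-5861538, plus strand) and Klf4 (chr4:55532426-55532725, minus strand), which rose, and of Klf15 (chr6:90462326-90462625, plus strand) and Klf9 (chr19:23140976-23141275, plus strand), which were not called. They are written 5′ to 3′ on the strand of the gene, and capitals mark each GC box (GGGCGG) and each CACCC box (CACCC) found on either strand.
Klf6: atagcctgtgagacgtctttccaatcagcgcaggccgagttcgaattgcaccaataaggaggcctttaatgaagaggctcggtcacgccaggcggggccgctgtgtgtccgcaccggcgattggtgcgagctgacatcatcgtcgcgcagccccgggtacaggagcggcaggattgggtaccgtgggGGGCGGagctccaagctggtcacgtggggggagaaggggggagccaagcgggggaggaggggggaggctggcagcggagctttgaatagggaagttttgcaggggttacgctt
Klf4: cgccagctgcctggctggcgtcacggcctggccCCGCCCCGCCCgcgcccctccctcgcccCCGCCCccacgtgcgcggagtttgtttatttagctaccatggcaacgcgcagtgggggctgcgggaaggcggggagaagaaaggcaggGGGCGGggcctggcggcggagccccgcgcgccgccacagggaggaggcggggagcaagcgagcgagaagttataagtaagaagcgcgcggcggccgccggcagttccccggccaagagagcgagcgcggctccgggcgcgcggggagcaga
Klf15: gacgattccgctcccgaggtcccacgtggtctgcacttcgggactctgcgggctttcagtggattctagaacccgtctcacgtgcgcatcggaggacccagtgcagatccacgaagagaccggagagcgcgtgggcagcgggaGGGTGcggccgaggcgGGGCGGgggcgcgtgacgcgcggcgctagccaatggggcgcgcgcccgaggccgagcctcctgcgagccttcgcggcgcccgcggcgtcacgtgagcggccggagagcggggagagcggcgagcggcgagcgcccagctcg
Klf9: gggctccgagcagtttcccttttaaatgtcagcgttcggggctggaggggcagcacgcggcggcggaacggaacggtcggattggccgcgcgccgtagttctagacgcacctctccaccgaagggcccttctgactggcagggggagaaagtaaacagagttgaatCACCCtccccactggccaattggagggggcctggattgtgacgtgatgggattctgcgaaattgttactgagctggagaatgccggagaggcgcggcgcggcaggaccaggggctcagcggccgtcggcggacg

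The GC box, a site of Sp factors that overlaps the sites of Kruppel-like factors, was found in 7 of the 8 member windows, and in 35.9% of 27025 promoter windows of the same length. Klf9 was the window without one. The window of Klf6 held 1, starting at -63 from the gene start, and that of Klf4 held 4, starting at -217, -212, -189 and -101. CACCC, the core of many Kruppel-like factor sites, was found in 6 of the 8 windows and in 56.7% of all windows. It was absent from those of Klf4 and Klf6, and Klf3 held the most matches, 5, beside 6 GC boxes. The CRE (TGACGTCA), the AP-1 site (TGAGTCA), the glucocorticoid receptor half-site (AGAACA) and the TATA box (TATAAA) were each found in 0 of the 8 windows, and in 1.88%, 5.17%, 19.0% and 14.2% of all windows. GC content of the 4 printed windows was 63.0% for Klf6, 74.3% for Klf4, 73.3% for Klf15 and 63.3% for Klf9, against a median of 52.7% over all windows.

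Klf3, the repressor that recruits CtBP (chromosome 5, 64803388 to 64832901), had replicates closer together than its groups. The WT libraries held 3.53 and 3.76 FPKM, the ADPKD libraries 9.80 and 9.93 FPKM. Klf3 rose by 1.23 (SE 0.15, limma adjusted p = 0.0228). Of its exon length 3.59% lies under an antisense gene, and the counting used no strand. Leaving out any of the 4 libraries ended the call (0.0637 to 0.0914) while the log2 fold change stayed between 1.19 and 1.26.

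Genes of the Sin3a-recruiting repressors did not move alike. Klf10, first described as a gene that TGF-beta induces early and also part of the output of the circadian clock, lies on chromosome 15, 38291463 to 38300706. The WT libraries had 3.03 and 5.20 FPKM and the ADPKD libraries 11.4 and 16.0 FPKM, so both ADPKD values exceeded both WT values at least 2.195-fold. Klf10 rose by 1.54 (SE 0.29, limma adjusted p = 0.0399). Either scaling alternative ended the call (0.0727 for quantile, 0.0857 for median-of-ratios), as did leaving out any of the 4 libraries (0.0689 to 0.139).

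Klf13, known from T cells and heart development, lies on chromosome 7, 63886351 to 63938915. Levels were 10.5 and 13.0 FPKM in WT and 18.6 and 20.6 FPKM in ADPKD, with no overlap. Its log2 fold change of 0.70 (SE 0.17, 95% interval 0.25 to 1.15) missed the threshold at a limma adjusted p = 0.0643. It passed with voom on recovered reads (0.0443) and with a minimum mean of 5 FPKM (0.0451).

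Klf9, which glucocorticoids and thyroid hormone induce, lies on chromosome 19, 23141226 to 23168134. Its values were 71.4 and 69.2 FPKM in WT and 57.0 and 65.2 FPKM in ADPKD. Both ADPKD libraries were lower, and the log2 fold change was -0.20 (95% interval -0.60 to 0.19, limma adjusted p = 0.396). An interval that holds 0 does not show that the levels were equal. The ratio of Klf6 to Klf9 within a library was 0.125 and 0.171 in WT and 1.67 and 1.07 in ADPKD.

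Klf15, a glucocorticoid-induced regulator of amino acid and glucose metabolism, was the member with the lowest log2 fold change (chromosome 6, 90462576 to 90475238). WT replicates 1 and 2 had 41.2 and 60.0 FPKM of it, from 2112 and 3016 reads. ADPKD replicates 1 and 2 had 28.5 and 23.0 FPKM, from 1478 and 1282 reads. Both ADPKD libraries were below both WT libraries. The log2 fold change of -0.93 (SE 0.24, 95% interval -1.57 to -0.29) missed the threshold at a limma adjusted p = 0.0735, and it did so in each of the 14 other settings run (0.0509 to 0.225). Leaving out WT replicate 2 moved it to -0.66, and leaving out WT replicate 1 to -1.20. Within a library Klf6 stood at 0.218 and 0.197 times the level of Klf15 in WT and at 3.34 and 3.04 times in ADPKD.

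**Figure D3:**
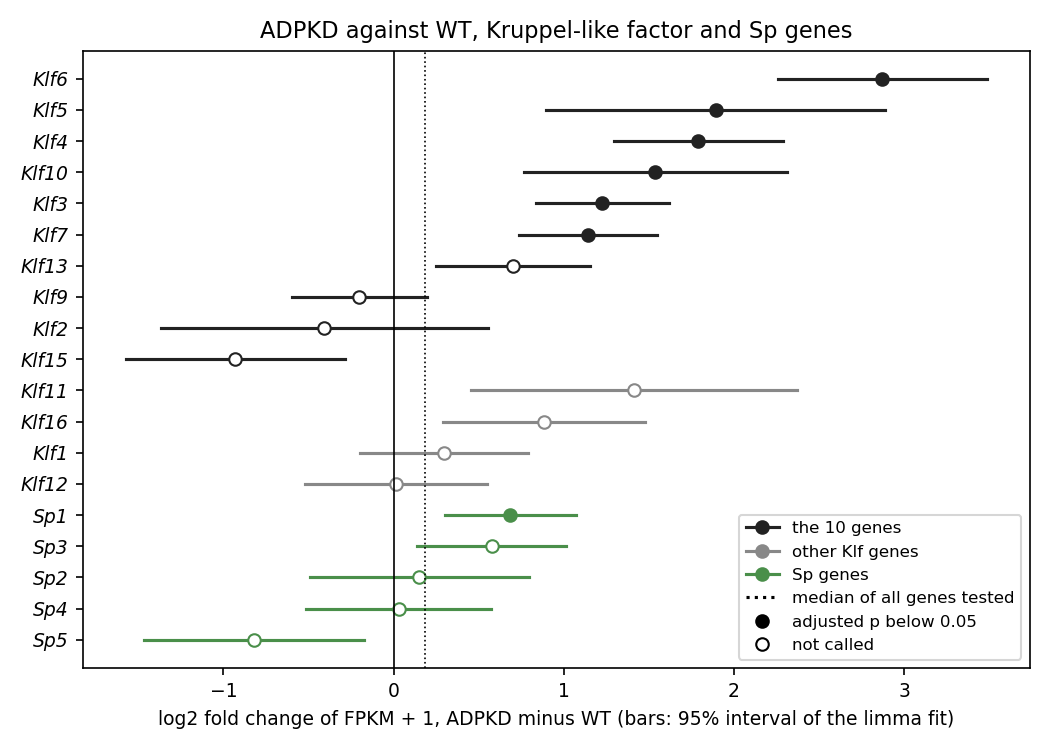
Log2 fold change of FPKM + 1, ADPKD minus WT, with the 95% interval of the limma fit, for the 10 genes (black), other Klf genes (grey) and Sp genes (green); filled points passed an adjusted p below 0.05, and the dotted line is the median of all genes tested, 0.18. The intervals of the 6 called members and of Klf13 lie above 0, and that of Klf15 lies below 0.

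Both ADPKD libraries lay above both WT libraries for 7 members and below them for Klf9 and Klf15. Of all genes tested 43.6% lay above and 21.0% below in the same way, so a lack of overlap is common here. With 2 libraries a group, the smallest two-sided p of an exact permutation test is 0.333. Between members, the profiles of Klf3 and Klf7 over the 4 libraries were the most alike, with a root mean square difference of 0.0574 between their centred log2 values, followed by Klf4 and Klf10 at 0.184. The ADPKD libraries ranked differently by member: of the called members, Klf6 and Klf5 were higher in replicate 1, and Klf3, Klf4, Klf7 and Klf10 in replicate 2.

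Among relatives outside the 10, Klf11, a Sin3a-recruiting relative of Klf10, stood at 1.89 and 4.21 FPKM in WT and 7.62 and 11.4 FPKM in ADPKD (log2 fold change 1.41, 95% interval 0.45 to 2.37, limma adjusted p = 0.0709). Klf16, of the same group, had a log2 fold change of 0.88 (0.29 to 1.47, limma adjusted p = 0.0691), Klf1 of 0.30 and Klf12 of 0.0144. Klf8 was under the filter, with 7 and 7 reads in WT and 32 and 27 in ADPKD, and Klf17 had at most 1 read. Of the 4 tested relatives limma called 0, with 2 higher at an unadjusted p under 0.05; voom called 1 and the replicate block 2. Among the Sp genes, which encode the nearest relatives by DNA-binding domain, Sp1 rose from 5.30 and 5.20 to 8.83 and 9.29 FPKM (log2 fold change 0.69, SE 0.15, limma adjusted p = 0.0485), and 1 of 5 tested was called. With quantile normalization, with median-of-ratios scaling and without any 1 of the 4 libraries 0 Sp genes were called. Sp5, a Wnt target, had a log2 fold change of -0.82 (limma adjusted p = 0.0933).

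Genes whose proteins work with Kruppel-like factors had log2 fold changes of -0.39 to 0.65. Of 12 genes of corepressors, coactivators and ubiquitin ligases 0 were called by limma, with 2 higher at an unadjusted p under 0.05 and 1 called higher by voom, and the median log2 fold change was 0.29. Fbxw7, whose product marks Klf5 for breakdown, had the smallest limma adjusted p, 0.0636, with a log2 fold change of 0.65, followed by the acetyltransferase gene Kat2b at 0.49 and Sin3a at 0.41. In the kinase pathway through ERK5 and MEF2 that induces Klf2 and Klf4, 3 of 10 genes rose and 0 fell: Map3k2 (log2 fold change 1.02, limma adjusted p = 0.0308), Mapk7, which encodes ERK5 (0.88, 0.045), and Mef2d (0.86, 0.0482). Each scaling alternative left 1 of these calls, and leaving out any 1 library left 0.

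TGF-beta, which induces Klf10 and Klf6, had many pathway genes higher in the same libraries. Of 12 genes 10 rose and 0 fell, with a median log2 fold change of 1.37, against 0.18 over all genes. Of all genes tested 9.43% were called higher. The ligand gene Tgfb3 rose by 1.77 and the receptor gene Tgfbr2 by 1.47 (limma adjusted p = 0.0191 each). Leaving out ADPKD replicate 1 or 2 gave counts of 1 and 0, and leaving out WT replicate 1 or 2 counts of 4 and 2.

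Klf2, Klf4, Klf6 and Klf10 are also known as genes that respond within minutes to hours to growth factors and stress, so immediate-early genes are given beside them. Of 13 tested 11 rose and 0 fell, with a median of 2.58, where 9.43% of all genes tested were called higher. Those that rose included Maff (3.41), Myc (2.61) and Fos (2.92, limma adjusted p = 0.0202). Egr2, also called, averaged 0.0967 FPKM in WT and passed the filter only through the ADPKD libraries. The summed level of the immediate-early genes was 125 and 165 FPKM in WT and 501 and 828 FPKM in ADPKD replicates 1 and 2. The count was 8 without ADPKD replicate 1, 6 without WT replicate 1, 4 without WT replicate 2 and 0 without ADPKD replicate 2. Handling of the tissue is not described in the labels, and its part in these levels was not tested.

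Glucocorticoids induce Klf9 and Klf15, and genes of that response are given beside them. Of 8 tested limma called 0, with 1 higher and 1 lower at an unadjusted p under 0.05. Voom called 1 higher and the replicate block 2, and the median was 0.33. Dusp1, a phosphatase gene, had a log2 fold change of 0.99 (limma adjusted p = 0.068), Sgk1 of -0.58 (0.0969) and Errfi1 of 0.41 (0.20). Clock genes, whose output includes Klf9, Klf10 and Klf15, had 2 of 14 members that fell and 0 that rose. At an unadjusted p under 0.05 they counted 3 higher and 5 lower, where all genes gave 23.5% and 11.1%. Hlf fell by 1.17 on the log2 scale (limma adjusted p = 0.0226) and Dbp by 1.47 (0.0354), the latter with 18.0% of its exon length under an antisense gene. Tef, the third clock output gene of that family, had a log2 fold change of -0.92 (0.0604). Without WT replicate 1 the number that fell was 1, and without each of the other libraries 0. The labels give no hour of collection, and its part in the levels of Klf15 and Klf10 was not tested.

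**Figure D4:**
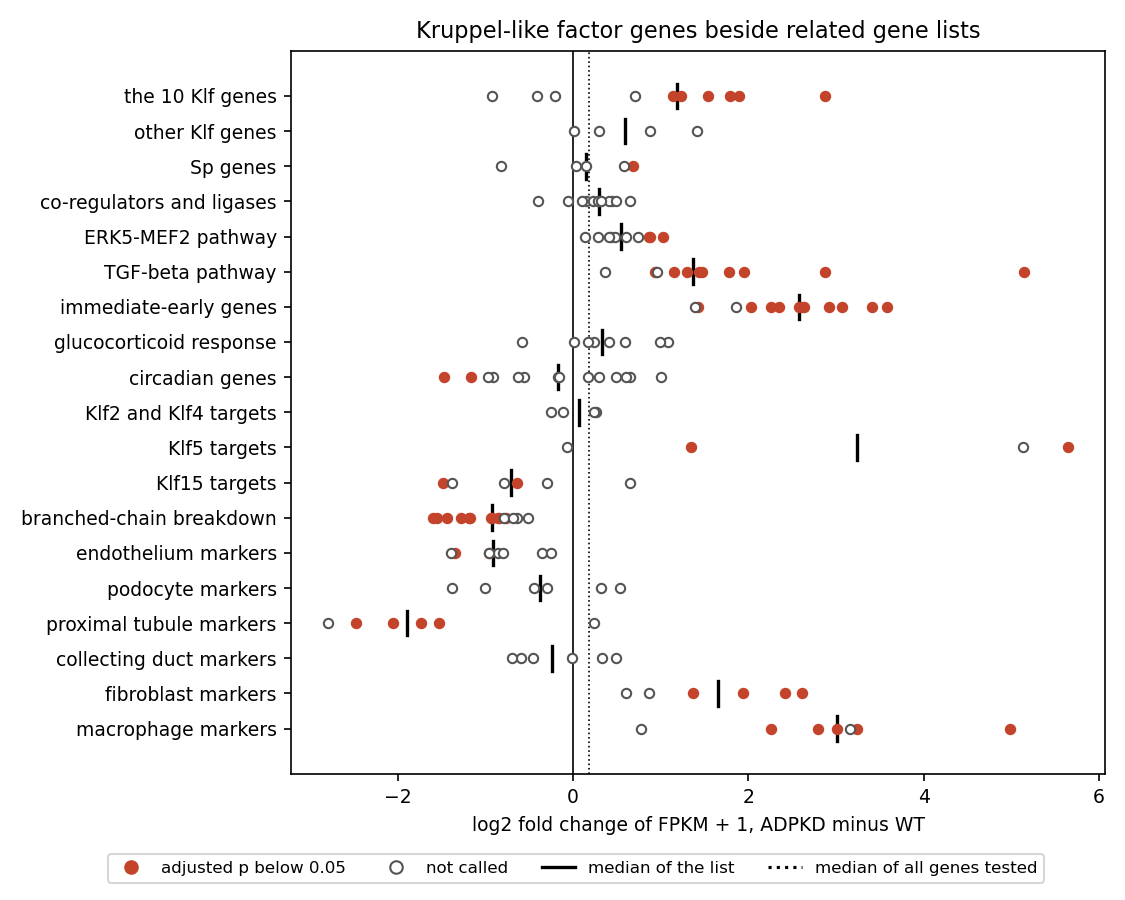
Log2 fold change of FPKM + 1, ADPKD minus WT, of each tested gene in the lists, with 1 row per list; red points passed an adjusted p below 0.05, the short black bar is the median of the list and the dotted line the median of all genes tested. The 10 Klf genes spread from -0.93 to 2.87 around a median of 1.18. The nearest list medians are those of TGF-beta pathway genes at 1.37 and of fibroblast markers at 1.65. That of other Klf genes is 0.59.

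Genes reported as targets of single members are given next, as lists and not as evidence of binding. The endothelial targets of Klf2 and Klf4, namely Nos3, Thbd, S1pr1 and Cdh5, had log2 fold changes of -0.26 to 0.26, and limma called 0 of 4, with 0 at an unadjusted p under 0.05 and 0 by voom. Thbd, the anticoagulant receptor thrombomodulin, stood at 5.14 and 7.85 FPKM in WT and 6.53 and 9.37 FPKM in ADPKD. Of 4 genes reported as targets of Klf5, 2 rose, the growth factor gene Pdgfa (log2 fold change 1.35, limma adjusted p = 0.0254) and S100a9 (5.65, 0.0388). S100a9 and S100a8 (5.13, 0.0584) are also the leading neutrophil genes, and neutrophil markers summed to 0.80 and 1.40 FPKM in WT and 45.0 and 427 FPKM in ADPKD. Either scaling alternative left 1 call, leaving out ADPKD replicate 1 left 2, and leaving out any other library left 0. Pdgfa has 26.1% of its exon length under another gene.

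Of 6 tested genes reported as Klf15 targets, 2 fell and 0 rose. Their log2 fold changes ran from -1.49 to 0.65, with a median of -0.71. The highest was that of the transaminase gene Gpt, at 5.71 and 10.8 FPKM in WT and 9.40 and 17.6 FPKM in ADPKD, with overlap. The glucose transporter gene Slc2a4 fell from 12.8 and 11.7 to 4.37 and 3.14 FPKM (log2 fold change -1.49, SE 0.19, limma adjusted p = 0.0248). The proline dehydrogenase gene Prodh fell from 39.97 and 38.2 to 24.4 and 25.3 FPKM (log2 fold change -0.64, limma adjusted p = 0.0493). Bcat2, the mitochondrial transaminase gene of branched-chain amino acids, had a log2 fold change of -0.79 (limma adjusted p = 0.0506). It is also a member of the list of branched-chain breakdown genes that follows. The branched-chain breakdown genes that Klf6 was reported to lower had 11 of 15 members that fell, with a median of -0.93. Of all genes tested 4.78% were called lower. The smallest adjusted p among the breakdown genes belonged to Pcca (-1.44), Mcee (-1.18) and Hibadh (-1.18). Leaving out any 1 library left 0 calls among the Klf15 targets and 0 to 2 among the breakdown genes. Proximal tubule markers had a median log2 fold change of -1.89, with 4 of 6 that fell (2 with quantile normalization, 1 without ADPKD replicate 1 and 0 without any other library), and summed to 1714 and 1388 FPKM in WT and 462 and 283 FPKM in ADPKD, and their part in these differences was not tested.

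Markers of cell types known to carry members are given beside them. In whole kidney, fewer cells of a type and less RNA per cell cannot be told apart. Endothelial markers, beside Klf2, had a median of -0.91, with 2 of 8 that fell (0 when any of the 4 libraries was left out), and summed to 159 and 195 FPKM in WT and 54.8 and 109 FPKM in ADPKD. Plvap, a gene of fenestrated capillaries, stood at 99.9 and 132 FPKM in WT and 25.8 and 71.3 FPKM in ADPKD. Egfl7, another endothelial gene, was at 14.6 and 16.3 FPKM in WT and 8.74 and 6.27 FPKM in ADPKD. Kdr, Tek, Emcn and Ehd3 were also lower in both ADPKD libraries, while Pecam1 and Cdh5 overlapped between the groups. Pecam1 stood at 8.17 and 8.49 FPKM in WT and 4.51 and 8.59 FPKM in ADPKD. The part of endothelial content in the Klf2 values was not tested. Podocyte markers, beside Klf15, summed to 75.3 and 60.8 FPKM in WT and 26.2 and 61.0 FPKM in ADPKD, so their groups overlapped where those of Klf15 did not. Collecting duct markers, beside Klf5, summed to 742 and 586 FPKM in WT and 593 and 592 FPKM in ADPKD, and limma called 0 of 6, with 1 higher and 1 lower at an unadjusted p under 0.05 and 0 by voom.

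Other cells that use these factors are leukocytes and stromal cells. Macrophage markers rose in 5 of 7 cases, with a median of 3.01, and fibroblast markers in 4 of 6, with a median of 1.65. Of all genes tested 9.43% were called higher. Lyz2 and C1qa led the macrophage list in level, and Col1a1 and Acta2 the fibroblast list. Without ADPKD replicate 2 both counts were 0, and without ADPKD replicate 1, WT replicate 1 and WT replicate 2 they were 3, 1 and 1 for macrophages and 2, 3 and 3 for fibroblasts. Median-of-ratios scaling left 2 macrophage calls. Markers of T cells, where Klf2, Klf3 and Klf13 are known to act, summed to 2.31 and 1.31 FPKM in WT and 1.48 and 2.09 FPKM in ADPKD, and B cell markers to 1.22 and 0.952 FPKM in WT and 1.34 and 2.73 FPKM in ADPKD. The part of leukocytes and fibroblasts in the levels of the 10 genes was not tested.

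The genes with profiles nearest to each called member over the 4 libraries were listed among 7235 genes with a mean of at least 5 FPKM, by the root mean square difference of centred log2(FPKM + 1). Nearest to Klf6 were F3, the gene of tissue factor, which starts clotting (0.0537), and Tnfrsf12a, the TWEAK receptor gene (0.0772). F3 stood at 4.24 and 6.07 FPKM in WT and 47.6 and 34.7 FPKM in ADPKD, higher in ADPKD replicate 1 as Klf6 was. Klf4 lay nearest to Flot1 (0.0293) and Ctps (0.0518), and Klf5 to Spns2 (0.0904) and Trpv5 (0.112). Klf10 lay nearest to Npdc1 (0.0581) and to Jund (0.0817), a gene of the AP-1 family that stood at 45.5 and 66.0 FPKM in WT and 134 and 166 FPKM in ADPKD. Klf3 lay nearest to Sh3bp4 (0.0364) and Foxp4 (0.0386), and Klf7 to Bcl10 (0.0255) and Ets2 (0.0278). Each such measure rests on 4 values a gene.

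**Figure D5:**
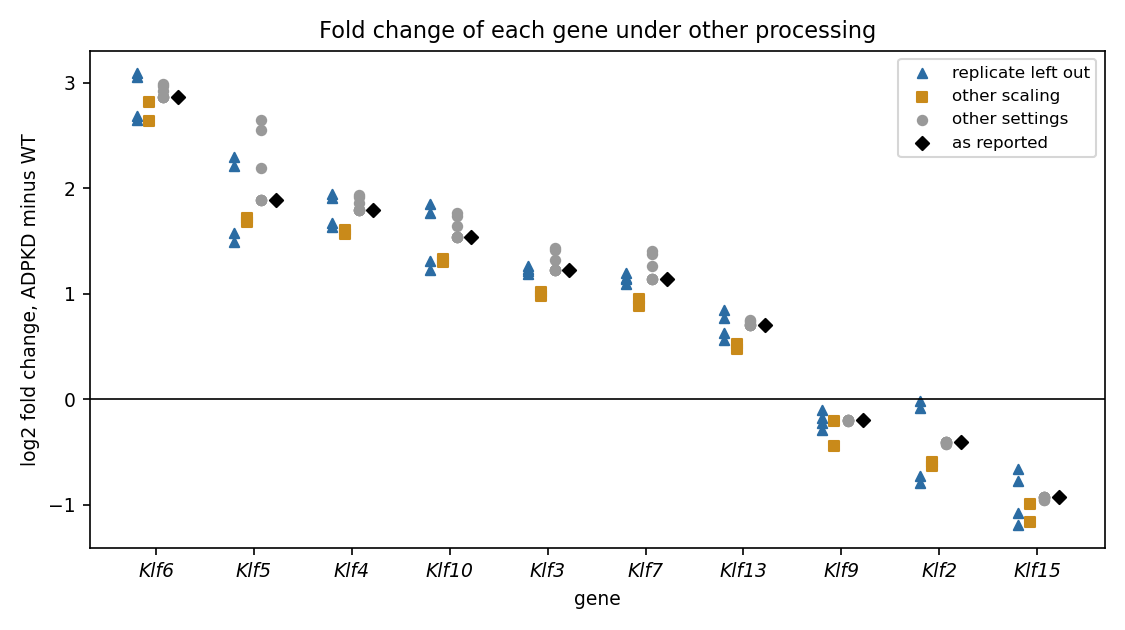
Log2 fold change of each of the 10 genes, ADPKD minus WT, under the reported setting (black diamonds), with 1 library left out (blue triangles), with quantile normalization or median-of-ratios scaling (orange squares) and under the other settings (grey circles). Every value keeps its side of 0, with Klf2 the closest at -0.0135 and Klf6 between 2.64 and 3.09.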

How the data were processed

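RNA was isolated with TRIzol from whole kidney and selected with oligo dT, per the labels' protocols. The values used are FPKM as deposited by the authors. Bowtie2, DESeq2 and the mm10 build are named in the submitters' processing notes, with no roles. Per the file headers, featureCounts 1.6.0 assigned reads to exons by gene name, with Ensembl release 98 (GRCm38), with multi-mapping reads included and no strand or paired-end option. Positions and exon lengths (in bases) come from that deposited table; its 16 further columns of per-sample values could not be matched by name to these samples and were not used.

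Of 32176 rows, 25 named as dates were left out. Multiplied by exon length, 100% of values were whole reads within 0.01 reads, which gave the depth; a 0 allows up to 3 reads, covering counting error only. ADPKD and WT, grouped by sample title, were compared with limma 3.58.1 (R 4.3.3) on log2(FPKM + 1) with an intensity trend, for genes with a mean of at least 0.5 FPKM, two-sided, with 2 residual and 2.55 prior degrees of freedom. Fold changes on this scale understate those of low genes. The fit was tested on simulated data. Alternatives changed the pseudocount, filter, trend, prior, scaling, model (voom on recovered reads), replicate block and libraries. Gene lists are described by counts and medians, with no test over a list. The members and lists were chosen with earlier results of these data known. Named beyond the members were any Klf or Sp gene, the 3 smallest adjusted p of each pathway or target list, the 2 highest genes of each cell type list and the 2 nearest profiles of each called member; other named genes were chosen after their values were seen. Of the genes so named, 1 is not reported here.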

Additional observations from a re-analysis of the deposited data

How the results depend on the processing

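Fold changes kept their direction for all 10 genes in the 14 other settings, or 13 for Klf5 and Klf7, which the filter of at least 5 FPKM left out. Calls depended on the setting. With 1 library left out, members called higher numbered 0 to 2, against 6, genes called higher 0 to 435, against 1604, and genes called lower 0 to 250, against 813. With no filter on low values 0 members, 1 gene higher and 0 genes lower were called by limma, with 7251 genes at an unadjusted p under 0.05 and 7 members higher at that threshold; the cause was not tested. Quantile normalization called 999 genes higher, median-of-ratios scaling 817. Klf6 kept its call in 12 of 14 settings and Klf4 in 11. With the replicate block 6 members were called, with the same 6 shared, and 1220 genes higher and 625 lower. Numbers shared between groups do not pair these samples in the labels; deviations of same-numbered libraries correlated at 0.188 across genes. Members rest on at least 66 reads in every library.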

Other observations

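Klf1, the master regulator of globin genes in red cell precursors, did not follow them in value. Hba-a1 stood at 692 and 151 FPKM in WT and 71.5 and 34.6 FPKM in ADPKD, while Klf1 stood at 1.88 and 2.07 FPKM in WT and 2.32 and 3.01 FPKM in ADPKD. Neither was called (limma adjusted p = 0.324 for Klf1).

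Arntl and Npas2, clock genes of the opposite phase chosen after their values were seen, were higher in both ADPKD libraries than in both WT libraries. Of all genes tested 43.6% lay above in the same way and 21.0% below. Of the other clock genes, Per1, Per3, Nr1d1 and Nr1d2 overlapped between the groups, with log2 fold changes of 0.17, -0.17, -0.63 and -0.16. Clock, Cry1 and Cry2 were also higher in both ADPKD libraries, and Per2, Ciart, Dbp, Tef and Hlf lower. In WT, Arntl rests on 69 and 31 reads and Npas2 on 25 and 21 reads. With WT means of 0.364 and 0.264 FPKM, Arntl and Npas2 passed the filter of 0.5 FPKM only through the ADPKD libraries. Arntl stood at 0.499 and 0.229 FPKM in WT and 0.909 and 1.37 FPKM in ADPKD, and Npas2 at 0.284 and 0.243 FPKM in WT and 1.07 and 2.11 FPKM in ADPKD. Neither passed the adjusted threshold.

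Klf2 lay within 0.0185, in root mean square difference of centred log2 values, of Sod3, the gene of extracellular superoxide dismutase, which stood at 139 and 236 FPKM in WT and 106 and 170 FPKM in ADPKD.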
